A study of Mus musculus with 24 samples.

Results

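Cytoplasmic RNA was set against total RNA in unmodified GT1-7 cells (wt), a line of immortalised mouse neurons from the hypothalamus that secretes gonadotropin-releasing hormone (GnRH). The 6 libraries that carry the genotype label wt, 3 of cytoplasmic RNA and 3 of total RNA, were taken from the 24 libraries of the series, and 5033 of the 57010 gene rows held enough counts to be tested. The Mkrn3ox cells, GT1-7 stably expressing GFP-Mkrn3, gave 3 cytoplasmic and 3 total RNA libraries that served as a repeat of the fractionation in another line. The 3 GFP inputs, lysate of GT1-7 cells that had received 6 µg of GFP plasmid for 24 h, were used only for the level of a row in another experiment. RNA was taken up in TRIzol and treated with DNase, and libraries were made by CEL-seq2, which primes on the poly(A) tail and reads 3' ends. Separate cultures are not named in the labels, so p-values here cover the spread between these libraries, which may be technical.

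An RNA polymerase II transcript leaves the nucleus after capping, splicing and polyadenylation have been completed, and export factors are loaded onto it as these steps are finished. Some RNAs stay behind: long non-coding RNAs that act on chromatin or in nuclear bodies, and polyadenylated mRNAs that keep a detained intron, a class rich in genes of the splicing machinery itself. Transcripts made inside mitochondria never pass through the nucleus, and mRNAs of secreted proteins are translated at the endoplasmic reticulum, outside the nucleus.

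Levels are in CPM, read counts that edgeR put on its TMM scale to make libraries comparable, and changes are log2 fold changes of wt cytoplasm over wt total with their standard error (SE). A row was called where the adjusted p of edgeR's quasi-likelihood test, with Benjamini-Hochberg correction over all 5033 rows, was under 0.05. Total RNA contains the cytoplasmic RNA and CPM are relative, so a row kept in the cytoplasm lies near 0 and a positive value is a larger share of the cytoplasmic library. The wt cytoplasm libraries held 412605 to 582256 counts over 8309 to 9092 detected rows and the wt total libraries 577589 to 759271 counts over 10251 to 11284. The biological coefficient of variation was 0.384. In these bulk libraries, fewer cells of a type and less RNA per cell cannot be told apart. Of the GnRH neuron markers 4 of 14 could be tested, among them Gnrh1. All 14 summed to 192 to 349 counts per wt cytoplasm library and 227 to 434 per wt total library. The 9 astrocyte and oligodendrocyte markers summed to 0 to 3 counts per wt cytoplasm library and 1 to 10 per wt total library. The 9 fibroblast, endothelium or immune markers summed to 165 to 268 counts per wt cytoplasm library and 219 to 298 per wt total library, with 5 of the 9 at 0 in all 6 libraries. Most of this sum was Col1a2, with 173, 256 and 158 counts in wt cytoplasm and 287, 217 and 255 in wt total.

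The name of a row does not always fix the RNA behind it. Over 1104 rows with 1 gene on the other strand, the wt total level had a rank correlation of −0.06 with the row's own level in the GFP inputs and 0.33 with that of the gene on the other strand. Over 1691 rows with no gene on the other strand the correlation with the own level was 0.297. These are descriptions across genes, which are not independent replicates. Reads from overlapping genes of opposite strands could therefore not be told apart, and positions are from RefSeq (GRCm38.p6). Levels in the GFP inputs are given below for rows with an overlapping or close gene.

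Rows named for non-coding RNAs of chromatin and nuclear speckles, such as Xist, Malat1 and Kcnq1ot1, were among those called lower in wt cytoplasm. So were rows named for mRNAs reported to carry detained introns, such as Clk1, Ccnl1 and Luc7l3. The mitochondrial rows mt-Nd6, mt-Te and mt-Tp, and the rows Egr1, Ptn and Igfbp5, were among those called higher. Of the 5033 rows, 159 (3.16%) were lower and 31 (0.616%) higher in wt cytoplasm than in wt total RNA. At an unadjusted p under 0.05 the counts were 495 lower and 310 higher. Every cytoplasm library lay below every total library in 572 rows (11.4%) and above in 412 rows (8.19%). Of the 159 lower rows, 158 had such separated groups, and 34 were at 0 in all 3 cytoplasm libraries. Of the 190 calls, 86 (76 lower, 10 higher) were lost under no alternative that was run, 104 were lost under at least 1, and 0 changed sign.

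Long non-coding RNAs known to stay at chromatin or in nuclear bodies had the lowest median change of the 32 gene lists with a tested row. The deposited rows named 19 such RNAs, of which 8 could be tested, and 5 of the 8 were lower and 0 higher, with a median log2 fold change of −4.30 against 0.01 over all tested rows. At an unadjusted p under 0.05, 6 of the 8 were lower and 0 higher, and the DESeq2 test also gave 5 lower and 0 higher. Of all 5033 tested rows, 3.16% were called lower, and 495 were lower at an unadjusted p under 0.05. The 5 called were Xist, Tsix, Malat1, Kcnq1ot1 and Firre. Across the alternatives 3 to 5 members were called lower. Among the 2 members with no gene on the other strand 1 was lower, and their median was −2.288. In Mkrn3ox cells 2 of the 8 were lower and 0 higher, with a median of −1.975. Xist was at 0 in every Mkrn3ox total library, and Tsix averaged 13.8 CPM in Mkrn3ox total against 2993 CPM in wt total. These 2 rows were thus too low in Mkrn3ox cells to show whether their falls repeat.

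Malat1, an abundant RNA of nuclear speckles (chr19:5795690-5802672, minus strand), stood at 10.4, 10.6 and 0 CPM in wt cytoplasm and at 137, 158 and 109.9 CPM in wt total. The cytoplasm libraries lay below all total libraries by a log2 fold change of −4.17 (SE 0.614, adjusted p = 0.0001648). In Mkrn3ox cells the same row also fell (−3.19, adjusted p = 0.003058). The row had 5783 CPM in the GFP inputs, far above its level in either wt fraction, and overlaps Mascrna, which had 0 CPM there. Kcnq1ot1, the imprinted antisense RNA that silences genes around Kcnq1 (chr7:143213111-143296547, minus strand), had 2.59, 0 and 0 CPM in wt cytoplasm against 27.0, 57.7 and 68.3 CPM in wt total. Its 1 cytoplasmic value above 0 was still below every total library (−5.59, SE 0.999, adjusted p = 0.001273). In the GFP inputs Kcnq1ot1 had 13.8 CPM and the overlapping Kcnq1 0.196 CPM. Firre, an X-linked RNA that anchors chromatin near the nucleolus (chrX:50563120-50635321, minus strand), had 0, 0 and 2.73 CPM in wt cytoplasm and 27.0, 26.4 and 16.1 CPM in wt total. The groups were apart, but the call (−4.43, SE 1.20, adjusted p = 0.03836) was lost with the replicate block and in 5 of 6 leave-outs, all but that of wt cytoplasm library 3 (adjusted p up to 0.1634). Firre has no gene on the other strand and had 25.7 CPM in the GFP inputs.

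Xist, the RNA that coats the inactive X chromosome (chrX:103460373-103483233, minus strand), had 2.59, 8.50 and 2.73 CPM in wt cytoplasm and 250.4, 262 and 213 CPM in wt total (−5.57, SE 0.611, adjusted p = 1.114e-05). Tsix, its antisense partner and repressor (chrX:103431517-103484957), had 135, 70.1 and 120.3 CPM in wt cytoplasm and 2924, 3019 and 3036 CPM in wt total (−4.80, SE 0.294, adjusted p = 8.493e-10). In both rows each cytoplasm library was far below each total library. The genes overlap on opposite strands, and in the GFP inputs Tsix had 0.266 CPM against 57.3 CPM for Xist, so the reads in the Tsix row cannot be assigned to either RNA.

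Not every nuclear RNA of the group separated. Tug1, a non-coding RNA described in both compartments, had 51.7, 91.4 and 68.4 CPM in wt cytoplasm and 59.4, 87.3 and 87.1 CPM in wt total, which overlap (−0.14, SE 0.393, adjusted p = 0.9162). Ftx, an activator of Xist, had a log2 fold change of −2.04 and Snhg14, the host of a large snoRNA cluster, −0.94, and neither passed the test (adjusted p = 0.3802 and 0.2173). Neat1, the scaffold of paraspeckles, was too low to test, with 0, 0 and 2 counts in wt cytoplasm and 5, 24 and 8 counts in wt total.

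**Figure D1:**
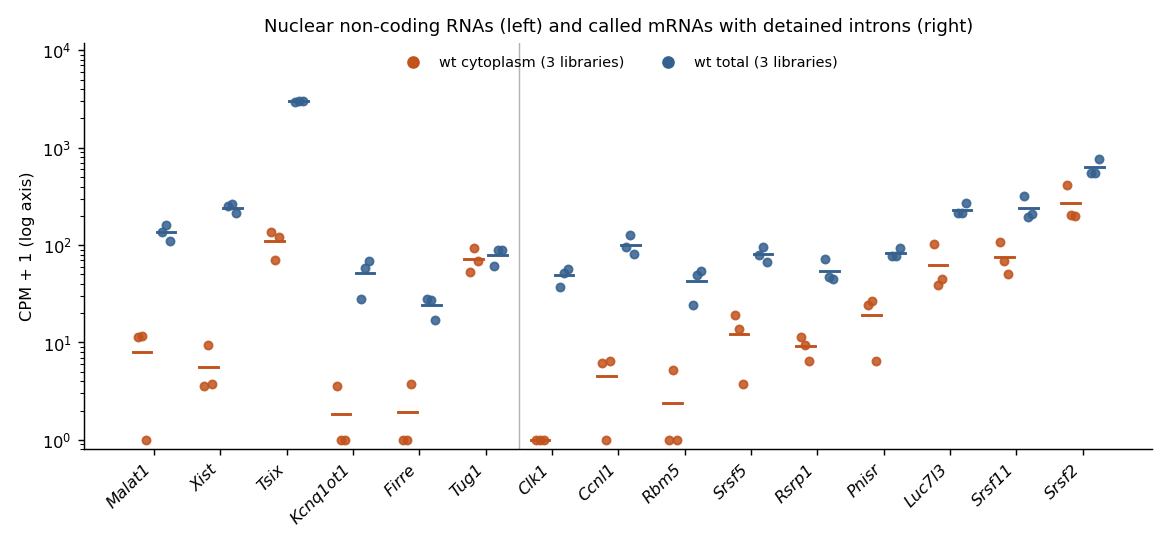
CPM + 1 on a log axis in each of 3 wt cytoplasm libraries (orange) and 3 wt total libraries (blue), with a bar at the mean, for 6 nuclear non-coding RNAs and the 9 called mRNAs with detained introns. The groups do not overlap for 14 of the 15 rows, which were plotted because they were called, so their separation largely follows from that choice. Of all tested rows, 11.4% had every cytoplasm library below every total library. The groups of Tug1, which was not called, lie on top of each other.

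Messenger RNAs reported to carry detained introns moved in the same direction with smaller steps. There were rows for 41 of them and 39 were tested, of which 9 (23.1%) were lower and 0 higher, with a median of −1.06 and with 19 of the 39 having every cytoplasm library below every total library. At an unadjusted p under 0.05, 22 were lower and 0 higher, and the DESeq2 test called 14 lower and 0 higher. For all tested rows, 3.16% were called lower and 11.4% had every cytoplasm library below every total library. At an unadjusted p under 0.05, 495 of the 5033 were lower. Among the 22 members with no gene on the other strand 6 were lower, and their median was −1.31. The count of lower members was 16 under scaling by library size alone, which moves the median of all rows to −0.22, and 5 without wt cytoplasm library 3.

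Clk1, a kinase of SR splicing proteins whose own transcript is a well-known detained-intron RNA (chr1:58411988-58424088), had 0 CPM in all 3 wt cytoplasm libraries and 36.03, 51.1 and 56.3 CPM in wt total. Set against a floor of 3 counts over the group it was at least 19.9-fold lower (adjusted p = 0.001664), and it fell in Mkrn3ox cells too (−3.67, adjusted p = 0.02121). Clk1 had 28.8 CPM in the GFP inputs, where its neighbour Bzw1, within 5 kb, had 277 CPM. Ccnl1, cyclin L1 of the splicing-linked cyclin-dependent kinases (chr3:65945908-65962029, minus strand), had 5.17, 0 and 5.47 CPM in wt cytoplasm and 93.7, 125 and 80.4 CPM in wt total. Its highest cytoplasm value was far under its lowest total value (−4.81, SE 0.804, adjusted p = 0.0006657). Rbm5, an RNA-binding regulator of splice site choice (chr9:107740495-107771007, minus strand), had 0, 4.25 and 0 CPM in wt cytoplasm and 23.4, 47.8 and 53.6 CPM in wt total. The groups were apart (−4.51, SE 1.03, adjusted p = 0.01247), and the call was lost without wt cytoplasm library 1 or 3 (adjusted p up to 0.05665). Srsf5, an SR protein (chr12:80945495-80950507, plus strand), had 18.1, 12.7 and 2.73 CPM in wt cytoplasm and 77.5, 95.5 and 65.7 CPM in wt total. Its change of −2.78 (SE 0.651, adjusted p = 0.01417) was lost without wt cytoplasm library 2 or 3 or wt total library 2 (adjusted p up to 0.07309). Rsrp1, an arginine- and serine-rich protein gene (chr4:134923625-134927370, plus strand), had 10.4, 8.50 and 5.47 CPM in wt cytoplasm and 70.3, 46.1 and 44.2 CPM in wt total (−2.68, SE 0.552, adjusted p = 0.005188), and this call was lost under no alternative.

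The other 4 called members were more abundant and fell by less. They were named after their values were seen. Luc7l3, a U1-associated splicing factor (chr11:94291073-94322329, minus strand), had 100.9, 38.2 and 43.8 CPM in wt cytoplasm and 214, 211 and 268 CPM in wt total (−1.93, SE 0.320, adjusted p = 0.0005867). Srsf2, an SR protein of the speckle core (chr11:116849897-116853675, minus strand), had 414, 204 and 199.6 CPM in wt cytoplasm and 555, 549 and 774 CPM in wt total (−1.20, SE 0.245, adjusted p = 0.004608). It lies inside Mfsd11 on the other strand, and the GFP inputs held 148 CPM of Srsf2 and 50.8 CPM of Mfsd11. In both rows the groups were apart, and neither call was lost under any alternative. Srsf11 had a log2 fold change of −1.68 (adjusted p = 0.01565, up to 0.09056 without wt cytoplasm library 2 or 3 or wt total library 1) and Pnisr −2.13 (adjusted p = 0.04273, up to 0.1534 in the 6 leave-outs and also lost with the replicate block). Members just outside the threshold were Ankrd11, a chromatin regulator (−3.08, adjusted p = 0.0567), the RNA helicase gene Ddx5 (−1.13, adjusted p = 0.05894) and Rbm25 (−1.05, adjusted p = 0.06795). Srsf3, another SR protein gene, had a positive value (0.60, SE 0.448, adjusted p = 0.5877) with overlapping groups.

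A separate list of splicing factors outside the detained-intron list gave a different picture. Of its 31 tested members, 0 passed edgeR's test in either direction, and 3 were lower and 2 higher at an unadjusted p under 0.05. The DESeq2 test also gave 0, and the median was −0.07. This holds for the listed members only. Srek1 (−2.21, adjusted p = 0.02026) and Rbm26 (−2.28, adjusted p = 0.003268), RNA-binding protein genes called in neither list, were lower. Chromatin and very large nuclear regulators had 0 called of 38 (5 lower and 2 higher at an unadjusted p under 0.05, 1 lower with DESeq2) but a median of −0.50. Of the 38, 11 had every cytoplasm library below every total library, against 11.4% of all tested rows. Among the 8 members with no gene on the other strand the median was −0.196, and 1 had its groups apart in this way. Ash1l, a histone methyltransferase gene, had 5.17, 4.25 and 8.20 CPM in wt cytoplasm and 34.2, 28.0 and 26.8 CPM in wt total (−2.31, adjusted p = 0.1356). Its groups were apart without a call, as were those of Kmt2a (−1.73, adjusted p = 0.1252). At this depth, the test recovered 43.9% of simulated 4-fold changes and 11.9% of 2-fold changes, so changes of these sizes can go uncalled.

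**Figure D2:**
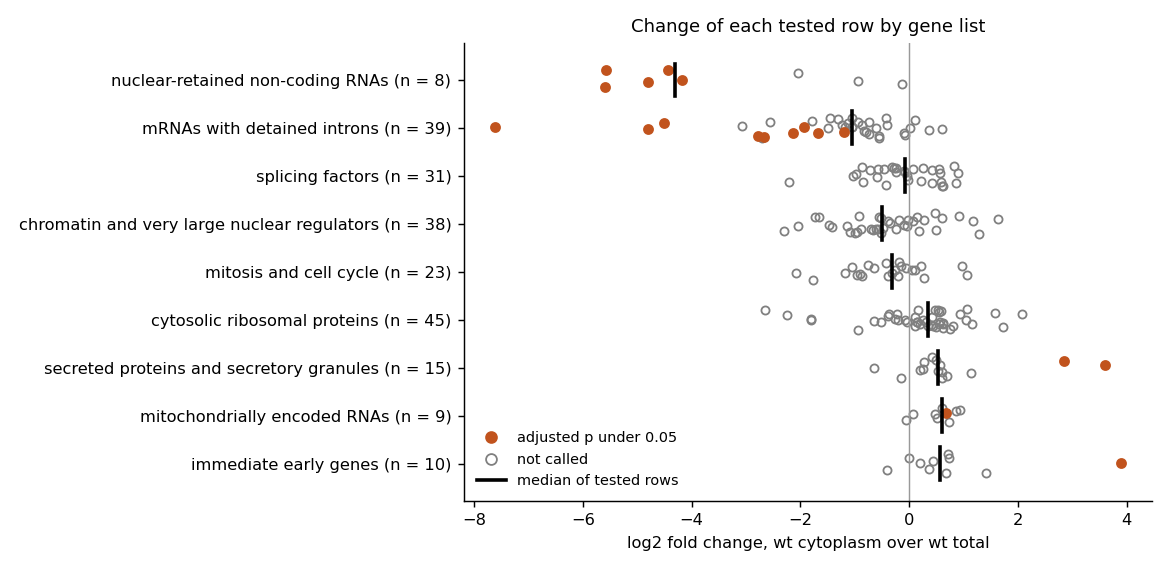
Log2 fold change of wt cytoplasm over wt total for each tested member of 9 gene lists, filled where the adjusted p was under 0.05, with a black bar at the list's median. The nuclear non-coding RNAs have their median at −4.30 and the detained-intron mRNAs at −1.06, while splicing factors lie around −0.07.

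By annotated class, the calls were unevenly spread. Of 4525 protein-coding rows 82 (1.81%) were lower, of 349 lncRNA rows 48 (13.8%), of 82 TEC rows (transcribed loci whose nature is still to be determined by experiment) 20 (24.4%) and of 19 pseudogene rows 6 (31.6%). Predicted genes named Gm held 50 lower rows of 316 (15.8%). Without wt cytoplasm library 2 these counts were 29 of 418 lncRNA rows (6.94%), 12 of 94 TEC rows (12.8%) and 31 of 378 Gm rows (8.2%), against 59 of 5083 protein-coding rows (1.16%). Leaving out another library gave 34 to 45 lncRNA rows, 13 to 16 TEC rows and 34 to 45 Gm rows, and a mean of at least 20 counts gave 20 of 192 lncRNA, 7 of 30 TEC and 20 of 164 Gm rows. The medians were 0.02 for protein-coding, −0.08 for lncRNA (−0.07 with rows at 0 set to their bound), −0.63 for TEC and −0.50 for pseudogene rows, so the median lncRNA row lay close to that of all rows. The TEC median was 0.0042 over the 30 rows whose mean count reached 20 and −0.13 with the compared groups alone. As a share of all counts, lncRNA rows took 6.41% ± 0.0829 of wt cytoplasm and 7.65% ± 0.579 of wt total libraries (SD, n = 3 each). TEC rows took 0.83% ± 0.0215 in wt cytoplasm and 1.58% ± 0.181 in wt total, and pseudogene rows 0.156% ± 0.00432 in wt cytoplasm and 0.318% ± 0.0242 in wt total. The groups did not overlap in any of these 3 shares, and each exact two-sided permutation p was 0.1, the smallest that 3 against 3 libraries can give. Mitochondrial rows took a larger part of wt cytoplasm counts. Without them the lncRNA share was 8.23% in wt cytoplasm and 9.11% in wt total, and the groups nearly touched (8.466% in cytoplasm library 2, 8.537% in total library 2). TEC rows then took 1.065% and 1.882%, and pseudogene rows 0.200% and 0.378%.

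Calls were also unevenly spread by the level of a row in the GFP inputs. Among 641 rows under 1 CPM there, 77 (12%) were lower in wt cytoplasm, against 82 of 4392 rows (1.87%) at 1 CPM or more. Among lncRNA and TEC rows under 1 CPM, 55 of 316 (17.4%) were lower. Rows lying inside a gene of the other strand, 5 kb or more from that gene's 3' end, were lower in 19 of 334 cases (5.69%), those with no gene on the other strand in 32 of 1728 (1.85%), and those holding the partner's 3' end in 16 of 965 (1.66%). The part of other transcripts in these rows was not tested. Protein-coding rows with no gene on the other strand and at least 1 CPM in the GFP inputs gave 27 lower (1.61%) and 5 higher (0.298%) of 1679. The 5 higher were Inafm2, Pafah1b2, Abhd17c, Ap3s2 and Igfbp5, and of these the call of Abhd17c alone was lost under no alternative. The call of Ap3s2 was lost in all 6 leave-outs (adjusted p up to 0.1404), that of Inafm2 in 5 of 6, all but wt cytoplasm library 2 (up to 0.137), and that of Pafah1b2 in 4 of 6, all but wt cytoplasm library 3 and wt total library 3 (up to 0.1299). These 3 calls were also lost with library size alone, and that of Pafah1b2 with no filter.

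**Figure D3:**
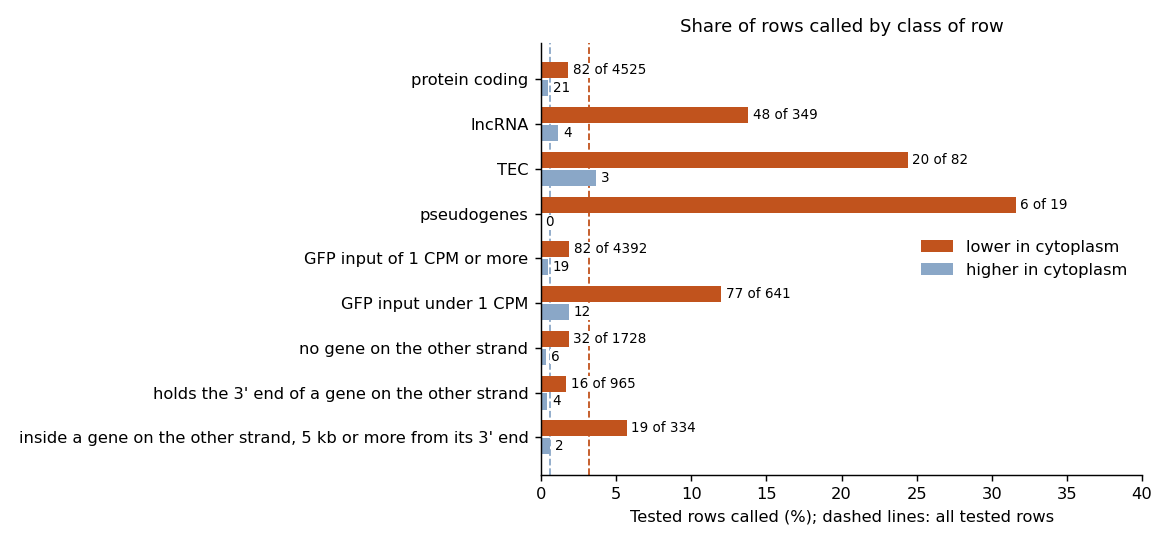
Percent of tested rows called lower (orange) or higher (light blue) in wt cytoplasm, by annotated class, by level in the GFP inputs and by place relative to a gene on the other strand. Counts stand beside the bars and dashed lines mark all tested rows; TEC rows (20 of 82) and pseudogenes (6 of 19) have the longest bars.

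By name, the 27 lower rows of that protein-coding set include splicing and export genes beside unrelated ones. Those named here were chosen after their values were seen, and the identity of the RNA counted was not tested further. Thoc2, a subunit of the THO complex that couples transcription to mRNA export (chrX:41794992-41911937, minus strand), had 15.5, 29.7 and 30.1 CPM in wt cytoplasm and 135, 207 and 85.8 CPM in wt total (−2.49, SE 0.442, adjusted p = 0.001224). In Mkrn3ox cells Thoc2 had −0.90, which did not pass the test (adjusted p = 0.2463), and the difference between the lines was not called. Eif2s2, the beta subunit of initiation factor eIF2 (chr2:154871410-154892906, minus strand), had 54.3, 34 and 27.3 CPM in wt cytoplasm and 292, 242 and 311 CPM in wt total (−2.86, SE 0.343, adjusted p = 1.375e-05). It fell by as much in Mkrn3ox cells (−2.88, adjusted p = 2.997e-05). Sat1, a polyamine acetyltransferase gene with a regulated exon (chrX:155213126-155216449, minus strand), had 15.5, 38.2 and 5.47 CPM in wt cytoplasm and 231, 194 and 318 CPM in wt total (−3.58, SE 0.527, adjusted p = 0.0001648). Jag1, a Notch ligand (chr2:137081451-137116520, minus strand), was the most abundant of the 27, with 378, 535 and 1039 CPM in wt cytoplasm and 1259, 1922 and 1569 CPM in wt total (−1.29, SE 0.255, adjusted p = 0.003509). In each of these 4 rows the cytoplasm libraries lay below all total libraries. Rbm26 (−2.28, adjusted p = 0.003268) and Srek1 (−2.21, adjusted p = 0.02026), RNA-binding protein genes, fell as well, and Srek1 lost its call without wt cytoplasm library 1 or 3 or wt total library 3 (adjusted p up to 0.1003).

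The largest falls of all were in rows at 0 in every wt cytoplasm library. Cd302, a C-type lectin receptor gene (chr2:60251993-60284484, minus strand), had 177, 152 and 147 CPM in wt total and was at least 64.1-fold lower in wt cytoplasm (adjusted p = 1.079e-06). Its GFP input level was 2.80 CPM, and the neighbouring Marchf7, an E3 ubiquitin ligase gene, had 79.8 CPM there. The processed pseudogene Gm49309 was at least 62.2-fold lower. Rmnd1, a factor of mitochondrial translation (chr10:4403169-4432405, minus strand), had 162, 62.6 and 141 CPM in wt total and was at least 49.8-fold lower (adjusted p = 9.718e-05). It overlaps Armt1 on the other strand. Cd46, a complement regulator, was at least 34.6-fold lower, and its row had 0.549 CPM in the GFP inputs, against 41.0 CPM for the neighbouring Cr1l.

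Several of these falls sat in long hosts. Mir99ahg, the host transcript of a miRNA cluster (chr16:77329328-77558428, plus strand), had 2.59, 8.50 and 19.1 CPM in wt cytoplasm and 186, 183 and 170.2 CPM in wt total (−4.15, SE 0.708, adjusted p = 0.0008198), with 14.4 CPM in the GFP inputs. The row 9430053O09Rik on the opposite strand within it was at least 31.8-fold lower. Nr6a1os, inside the nuclear receptor gene Nr6a1, was at least 22.9-fold lower. Aspn, which encodes a matrix proteoglycan but lies inside Cenpp and had 0.0392 CPM in the GFP inputs, had 2.59, 0 and 0 CPM in wt cytoplasm and 115, 125 and 97.8 CPM in wt total (−6.73, SE 0.759, adjusted p = 1.336e-05). Insyn2a, inside Dock1 and at 0.0369 CPM in the GFP inputs, had a change of −4.65 (SE 0.632, adjusted p = 6.864e-05). For these rows the name cannot be taken as the RNA that was counted.

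Dlx6, a homeobox factor of forebrain neurons (chr6:6863334-6867970), had 85.4, 17 and 41.0 CPM in wt cytoplasm and 685, 656 and 619 CPM in wt total (−3.79, SE 0.360, adjusted p = 8.607e-07). The non-coding neighbour Dlx6os1, within 5 kb, had 139.9 CPM in the GFP inputs and Dlx6 itself 44.9 CPM. AY036118, a row that overlaps the ribosomal RNA locus Rn18s-rs5 (chr17:39848112-39898385), had 69.9, 117 and 134 CPM in wt cytoplasm and 919, 654 and 825 CPM in wt total (−2.90, SE 0.232, adjusted p = 7.438e-08). It fell in Mkrn3ox cells too (−3.99, adjusted p = 6.884e-10).

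Of the miRNA rows tested, 1 of 5 was called. The row of Mir6385 (chr9:58221150-58221254) had 18.1, 8.50 and 5.47 CPM in wt cytoplasm and 59.5, 49.4 and 54.9 CPM in wt total (−2.33, SE 0.610, adjusted p = 0.03297), a call lost with the replicate block and in 5 of 6 leave-outs, all but that of wt cytoplasm library 1 (adjusted p up to 0.1365). A library that primes on poly(A) does not count a mature miRNA, and Pml, within 5 kb, had 33.6 CPM in the GFP inputs while the row itself had 0. The mature sequence from RefSeq (GRCm38.p6), which shows how short an RNA the row is named for, is given with its seed, bases 2 to 8, in capitals.
mmu-miR-6385: gCAAGGAUgacagagaggaag

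The 31 rows higher in the cytoplasm moved by less, with a median log2 fold change of 0.92. Mitochondrial RNA stood out by counts. Mitochondrial rows took 22.4, 24.2 and 19.5% of wt cytoplasm counts and 16.6, 16.8 and 14.6% of wt total counts, groups that do not overlap (exact two-sided permutation p = 0.1, the smallest possible). The single row mt-Nd6 made up 21.5, 23.2 and 18.6% of wt cytoplasm counts and 15.9, 16.05 and 13.9% of wt total counts, nearly the whole class. Among 9 tested mitochondrially encoded mRNA and rRNA rows 1 was higher and 0 lower, where 0.616% of all tested rows were called higher. At an unadjusted p under 0.05, 5 of the 9 were higher, and their median was 0.60 (0.36 with library size alone). Without the rows over 5% of a library, mt-Nd6 among them, 0 of the other 8 were called, while the DESeq2 test called 2 of the 9. In Mkrn3ox cells the median of the 9 rows was 0.0019. The row of mt-Nd6, a subunit of complex I, had 268800, 287400 and 209700 CPM in wt cytoplasm and 183300, 152700 and 141400 CPM in wt total (0.68, SE 0.116, adjusted p = 0.0007977). mt-Nd6 is encoded opposite to most mitochondrial genes, and reads of the genes it overlaps could not be told apart from its own. The tRNA row mt-Tp had 2135, 1570 and 1118 CPM in wt cytoplasm and 823, 712 and 698 CPM in wt total (1.11, SE 0.204, adjusted p = 0.001664). The call of the tRNA row mt-Te (0.65, adjusted p = 0.01651) was lost in 5 of 14 alternatives, 3 of them leave-outs (adjusted p up to 0.1085). Of 5 tested mitochondrial tRNA rows, 3 were higher and 1 lower at an unadjusted p under 0.05. Their median was 0.65 in wt and −0.70 in Mkrn3ox cells. mt-Nd5 (0.93, adjusted p = 0.06474) and mt-Cytb (0.86, adjusted p = 0.0743), a subunit of complex III, had separated groups without a call. The rRNA rows mt-Rnr1 (0.06) and mt-Rnr2 (−0.06) did not separate.

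Over all tested rows 0.616% were called higher, and 310 of 5033 were higher at an unadjusted p under 0.05. Of 15 tested genes for secreted proteins and secretory granules, 2 were higher (Ptn and Igfbp5) and 0 lower, with a median of 0.53. At an unadjusted p under 0.05, 6 of the 15 were higher. The median was 0.317 without wt total library 1 and 0.268 with library size alone, and 1 member was called without wt cytoplasm library 3. In Mkrn3ox cells the list had 1 higher and 2 lower members and a median of 0.15. Igfbp5, a binding protein of insulin-like growth factors (chr1:72858065-72874865, minus strand), had 160.4, 236 and 342 CPM in wt cytoplasm and 23.4, 51.1 and 28.1 CPM in wt total. The groups were apart (2.84, SE 0.599, adjusted p = 0.007797), and the call was lost without wt cytoplasm library 3 and with the DESeq2 test (adjusted p = 0.2072). Pam, the enzyme that amidates neuropeptides, had 0.42 (adjusted p = 0.1792), the protease gene Prcp 1.13 (adjusted p = 0.1457) and the glycoprotein gene Fstl1 0.70 (adjusted p = 0.1042). Gnrh1, the hormone precursor for which this cell line is used, had 28.5, 183 and 115 CPM in wt cytoplasm and 75.7, 69.2 and 87.1 CPM in wt total (0.50, SE 0.448, adjusted p = 0.6714). Its cytoplasm values lay on both sides of the total values. Otx2, a homeobox activator of Gnrh1, had 127, 121 and 90.2 CPM in wt cytoplasm and 28.8, 57.7 and 26.8 CPM in wt total, and was just short of a call (1.58, SE 0.460, adjusted p = 0.06041).

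Egr1, an immediate early transcription factor, had 67.3, 72.2 and 103.9 CPM in wt cytoplasm and 7.21, 1.65 and 6.70 CPM in wt total (3.90, SE 0.671, adjusted p = 0.000893). Every cytoplasm library was above every total library, and the call was lost under no alternative. It was the 1 called of 10 immediate early genes tested, whose median was 0.56, where 0.616% of all tested rows were called higher. In Mkrn3ox cells Egr1 averaged 14.3 CPM in cytoplasm and 18.2 CPM in total RNA (−0.35, adjusted p = 0.8421). Total RNA contains the cytoplasmic RNA. Whether the preparations differed in this or other higher rows for a reason other than compartment was not tested.

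Ptn, a secreted heparin-binding growth factor (chr6:36714924-36810179, minus strand), had 33.6, 55.2 and 71.1 CPM in wt cytoplasm and 3.60, 3.29 and 5.36 CPM in wt total (3.60, SE 0.404, adjusted p = 8.052e-06). In Mkrn3ox cells it was at 584 CPM in cytoplasm and 610.1 CPM in total RNA, and the change differed between wt and Mkrn3ox cells (3.66, SE 0.468, adjusted p = 0.0004971). Zfhx4, a homeobox gene, had 2.59, 0 and 41.0 CPM in wt cytoplasm and 0 in every wt total library, a call (adjusted p = 0.03411) that was lost without wt cytoplasm library 3 (adjusted p = 0.4868), without any 1 of the wt total libraries and with library size alone. The non-coding row Gm4524 had 82.8, 61.6 and 16.4 CPM in wt cytoplasm and 3.60, 18.1 and 8.04 CPM in wt total (2.42, SE 0.479, adjusted p = 0.003509). The groups of Gm4524 overlap, and its call was lost with the compared groups alone (adjusted p = 0.06962).

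Zfhx4 and Gm4524 were both far more abundant in Mkrn3ox cells. Zfhx4 averaged 119 CPM in Mkrn3ox cytoplasm and 166 CPM in Mkrn3ox total, and Gm4524 averaged 871 CPM in Mkrn3ox cytoplasm and 582 CPM in Mkrn3ox total. The part of this in the higher calls was not tested.

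**Figure D4:**
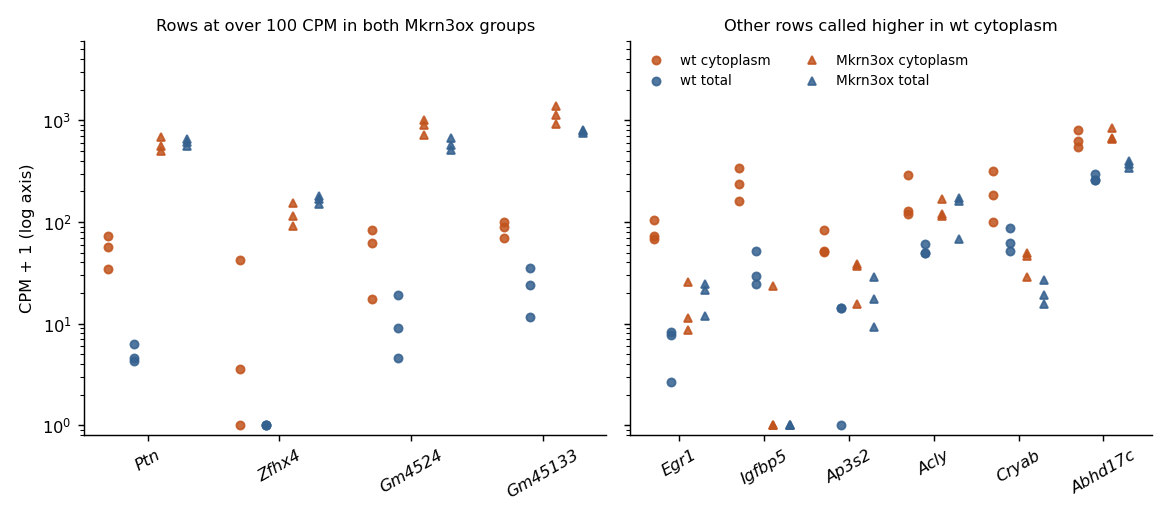
CPM + 1 on a log axis per library for 10 rows called higher in wt cytoplasm, as circles for wt and triangles for Mkrn3ox, orange for cytoplasm and blue for total RNA. On the left stand rows that are far more abundant in Mkrn3ox cells, such as Ptn at 584 CPM in Mkrn3ox cytoplasm; on the right Egr1 and Igfbp5 show their highest level in wt cytoplasm.

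Abhd17c, a depalmitoylating enzyme (chr7:84109356-84151893, minus strand), was higher in both lines. It had 549, 623 and 796 CPM in wt cytoplasm and 256, 257 and 297 CPM in wt total (1.28, SE 0.196, adjusted p = 0.0002634), and it rose in Mkrn3ox cells as well (0.96, adjusted p = 0.004905). Acly, the cytosolic ATP citrate lyase that feeds lipid synthesis, had 127, 119 and 293 CPM in wt cytoplasm and 48.6, 59.3 and 48.2 CPM in wt total (1.77, SE 0.398, adjusted p = 0.01064). The chaperone gene Cryab had 1.59 (adjusted p = 0.02725) and Tapbp, a chaperone of antigen loading, 0.92 (adjusted p = 0.00835), both with separated groups. Acly, Cryab and Tapbp did not pass the test in Mkrn3ox cells (0.03, 1.05 and −0.12). The call of Acly was lost without wt cytoplasm library 3 or wt total library 3 (adjusted p up to 0.1194) and that of Tapbp without wt cytoplasm library 1 (0.08797). Cryab lost its call with library size alone, the replicate block and 4 of 6 leave-outs, all but those of wt cytoplasm library 3 and wt total library 2 (adjusted p up to 0.2439).

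Many groups held no called row. Cytosolic ribosomal protein genes had 0 called of 45, with 2 lower and 3 higher at an unadjusted p under 0.05, 0 with the DESeq2 test and a median of 0.35, which was 0.05 among the 14 members with no gene on the other strand. Mitosis and cell cycle genes had 0 called of 23 (3 lower and 1 higher at an unadjusted p under 0.05, 0 with DESeq2) and a median of −0.31. In all, 18 of the 32 lists with a tested row had no edgeR call among their 292 tested rows, where 22 rows were lower and 24 higher at an unadjusted p under 0.05 and the DESeq2 test called 2 lower and 3 higher. Their medians ran from −0.78 to 0.71. Protein-coding genes split by their span into 4 groups of 1122 had medians of 0.14, 0.03, −0.02 and −0.09 from the shortest to the longest genes.

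The calls were set beside those of the other line. Mkrn3ox cytoplasm against Mkrn3ox total RNA gave 189 lower (3.76%) and 39 higher rows (0.775%). Of the 159 rows lower in wt cytoplasm, 151 had the same sign in Mkrn3ox cells and 91 were called lower there, which is 57.2% of the wt calls and 48.1% of the Mkrn3ox calls. Of the 31 rows higher in wt cytoplasm, 19 had the same sign and 3 were called higher, which is 9.68% of the wt calls and 7.69% of the Mkrn3ox calls. The median change of these 31 rows was 0.92 in wt and 0.09 in Mkrn3ox cells. The lines share no library here, although 1 estimate of the spread served both. A direct test of the difference between wt and Mkrn3ox changes called 11 rows (0.219%), of which 4 were among the 159 lower and 1 among the 31 higher rows of wt cells.

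**Figure D5:**
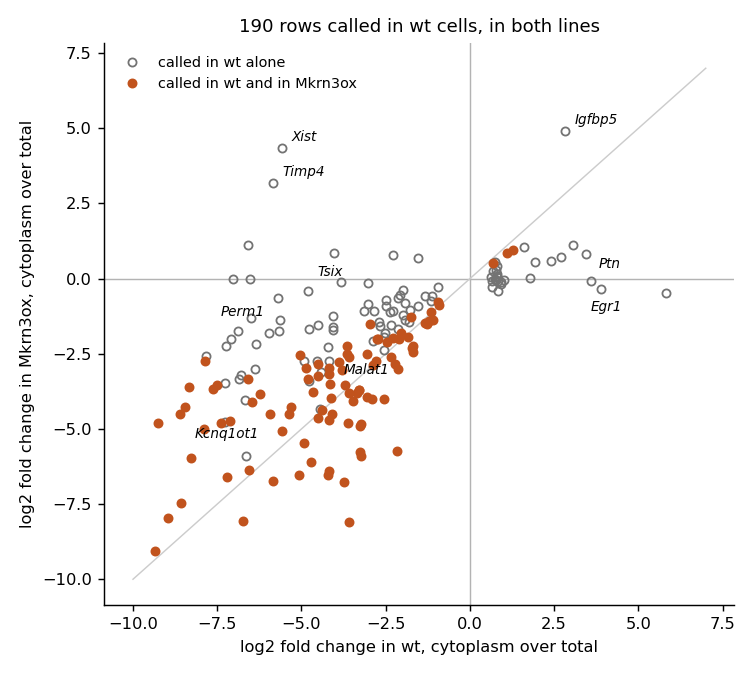
Log2 fold change of cytoplasm over total in Mkrn3ox (vertical) against wt (horizontal) for the 190 rows called in wt cells, filled where also called in Mkrn3ox. The 159 lower rows lie mostly in the lower left, where 151 share the sign, while the 31 higher rows scatter around 0 on the vertical axis.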

How the data were processed

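CEL-seq2 libraries of GT1-7 cells were analysed from the raw counts per gene row that the authors deposited. The submitters' processing notes name cutadapt, STAR, HTSeq and mm10. Not given in the sources used here are their versions, the annotation, the strand setting and whether molecular identifiers were used. All 12 fractionation libraries (374386 to 759271 counts) were fitted together with edgeR 4.0.16 in R 4.3.3 (limma 3.58.1): TMM scaling, filterByExpr by group, group means, quasi-likelihood F test, two-sided, Benjamini-Hochberg over 5033 rows, threshold 0.05. Groups came from the labels, 3 libraries in each, and no sample column was left unused (0). Rows at 0 over a group were set to a floor of 3 counts over the group, and such floors cover counting error only. Class shares used exact permutation tests over libraries. Positions, and the miRNA sequence, came from RefSeq (GRCm38.p6), which placed 4668 tested rows, 3767 with strand. mm10 is this assembly, and neighbours were sought within 5 kb.

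Members and lists were chosen with earlier results of these data known. The naming rule took up to 5 called rows per list, the 12 largest falls and the 12 largest rises with a mean of at least 20 counts, a preset list, and the 2 most abundant members of each list; others are said to be chosen after their values were seen. On simulated data with 200 changed rows of 5033, the wt comparison recovered 1.49% of 1.5-fold, 11.9% of 2-fold and 43.9% of 4-fold changes with 2 false calls. Alternatives were DESeq2 (1.42.0) size factors or its test, library size alone, no filter, a mean of 20 counts, the compared groups alone, the replicate number as a block, a fit without the 2 rows over 5% of a library, counts without mitochondrial rows for the shares, and leaving out each library. Splits by place, GFP input level and gene span were chosen after seeing the data. Python 3.11.15, numpy 2.4.6, pandas 2.3.3 and matplotlib 3.10.9 were used.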

Additional observations from a re-analysis of the deposited data

Results flagged for a closer look

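The change from total to cytoplasmic RNA differed between wt and Mkrn3ox cells in 11 of 5033 rows (edgeR, contrast of the 2 changes, adjusted p under 0.05), and the difference is given as wt minus Mkrn3ox on the log2 scale. It was −9.93 for Xist (adjusted p = 0.003786) and −4.39 for Tsix (adjusted p = 0.003786). Xist averaged 4.61 CPM in wt cytoplasm and 242 CPM in wt total, against 5.06 CPM in Mkrn3ox cytoplasm and 0 in every Mkrn3ox total library, so its difference is a fitted value that depends on the prior count and not a bound. Tsix averaged 108 CPM in wt cytoplasm and 2993 CPM in wt total, against 10.3 CPM in Mkrn3ox cytoplasm and 13.8 CPM in Mkrn3ox total. Both rows were thus near absent from Mkrn3ox libraries. It was −9.01 for Timp4, a metalloproteinase inhibitor gene (adjusted p = 0.00454), which averaged 1.57 CPM in wt cytoplasm and 107 CPM in wt total, against 7.55 CPM in Mkrn3ox cytoplasm and 0.554 CPM in Mkrn3ox total (0 to 1 counts per library). It was −5.05 for Perm1, a regulator of muscle metabolism (adjusted p = 0.03287), with 0.708 CPM in wt cytoplasm and 53.9 CPM in wt total, against 34.7 CPM in Mkrn3ox cytoplasm and 53.9 CPM in Mkrn3ox total.

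A positive difference was found for 7 rows. It was 3.66 for Ptn (adjusted p = 0.0004971), the 1 row of these that was called higher in wt cells. For the other 6 the row was lower in Mkrn3ox cytoplasm than in Mkrn3ox total and not called in wt cells. The difference was 1.10 for Pam, 1.35 for the sialyltransferase gene St3gal6, 1.48 for Mettl7b, 1.88 for Ap3m1, a subunit of an adaptor complex, 2.10 for Iah1 and 2.14 for the cadherin gene Cdh11. Ap3m1 averaged 1504 CPM in wt cytoplasm and 1626 CPM in wt total, and 376 CPM in Mkrn3ox cytoplasm and 1496 CPM in Mkrn3ox total. Cdh11 averaged 672 CPM in wt cytoplasm and 476 CPM in wt total, and 46.8 CPM in Mkrn3ox cytoplasm and 146 CPM in Mkrn3ox total.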

How the results depend on the processing

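Among the results recomputed, 1 class share changed direction. The share of nuclear protein-coding rows, cytoplasm over total, was 0.948 of all counts and 1.02 of counts without mitochondrial rows. Rows lower in wt cytoplasm stayed within 1.5 times of 159 under every alternative. Rows higher in wt cytoplasm were 31, against 16 with library size alone, 52 with the DESeq2 test and 17 (without wt total library 3) to 50 (without wt total library 1) over the leave-outs. In Mkrn3ox cells the 39 higher rows became 94 with the compared groups alone, 74 with the DESeq2 test and 7 (without Mkrn3ox total library 1) to 23 over the leave-outs, all 6 of which gave fewer, and the 189 lower rows 117 to 136, with the lowest counts without Mkrn3ox cytoplasm library 1 or 2 or Mkrn3ox total library 1. The 11 rows whose change differed between the lines became 43 with no filter on low counts, 50 with the DESeq2 test and 8 to 35 (without wt total library 1) over the leave-outs. The cause was not tested for any of these. The depth limits calls to large changes in rows of moderate level.

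With the replicate block the wt calls were 30 higher and 128 lower and the Mkrn3ox calls 25 higher. Same-numbered cytoplasm and total libraries had deviations correlated at 0.0796, 0.00601 and 0.00385 in wt and 0.0119, 0.0274 and 0.0369 in Mkrn3ox cells. Differently numbered wt pairs ran from −0.128 to 0.123. Deviations within 3 libraries cannot decide whether the numbers pair the libraries. Whether samples were swapped or mixed was not tested.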
